A study of Mus musculus with 24 samples.

Results

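The data described here are the transcript levels of 37 Notch signaling genes in the ductus arteriosus (DA) and ascending aorta of mouse embryos that carried or lacked Prdm6 in the neural crest. The members were chosen by name, from the known parts of the pathway, with earlier results of these data known. These members were found by matching the Ensembl identifiers of the count table to gene symbols. They comprise 4 receptors, 7 ligands, 6 target genes, 4 genes of the nuclear complex, 4 genes of receptor glycosylation, 6 genes of receptor cleavage and 6 genes of endocytosis and trafficking, out of 54752 genes in the table. Of the 37 members, 35 passed the filter on low counts and were tested among 16463 genes. The 2 that did not, Dll3 and Hes5, had levels from 0 to 1.01 and from 0 to 0.802 CPM (counts scaled to the library total).

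Notch receptors span the cell membrane and are activated by Jagged and Delta-like ligands on a neighbouring cell. Binding leads to cleavage by an ADAM protease and then by the gamma-secretase complex, after which the intracellular domain enters the nucleus, joins the DNA-binding protein Rbpj and a Mastermind coactivator, and switches on genes such as those of the Hes and Hey families of transcriptional repressors. In arteries, Jag1 and Notch3 act in the smooth muscle layers, and the pathway is known for its part in smooth muscle differentiation in the vessels that come from the pharyngeal arch arteries, of which the DA is one.

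Vessels were microdissected from embryos at E18.5, shortly before birth, on a C57/Black6 background. Knockout (KO) embryos were Wnt1Cre;PRDM6f/f, in which Cre under the Wnt1 promoter removes the floxed Prdm6 alleles from neural crest cells and their progeny, so that endothelium and other cells of the wall from elsewhere keep the gene. The control groups consisted mostly of PRDM6wt/f embryos without Cre, with 1 PRDM6wt/wt embryo in the control DA group and 1 Wnt1Cre;PRDM6wt/wt embryo that gave both a control DA and a control aorta library. The groups held 7 control DA, 5 KO DA, 6 control aorta and 5 KO aorta libraries, and 2 of the KO DA libraries (replicates 1 and 2) were pools of 2 embryos. A further KO DA sample (replicate 4) is in the labels but was not analysed here.

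Library totals ran from 15163974 to 22610547 counts, so that 3 counts correspond to between 0.133 and 0.198 CPM before normalisation. Prdm6 itself ranged from 84.9 to 128 CPM in control DA and from 58.6 to 78.5 in KO DA (log2 fold change -0.57). It ranged from 95.6 to 135 CPM in control aorta and 61.9 to 81.2 in KO aorta (log2 -0.69). The source of the Prdm6 counts left in KO vessels was not tested. Of the 8 smooth muscle markers (Myh11, Acta2, Tagln, Cnn1, Mylk, Smtn, Lmod1 and Myocd), none was at or below 3 counts throughout a group. Their summed level was 13700 to 24000 CPM in control DA, 9960 to 12200 in KO DA, 8660 to 12300 in control aorta and 9590 to 11300 in KO aorta. The 9 endothelial markers were also detected in every group, with sums of 944 to 1350, 1190 to 1660, 822 to 1360 and 1150 to 1660 CPM in the same order. The melanocyte sum (5 markers) was 27.7 to 218 CPM in control DA, against at most 1.56 in KO DA, 13.8 in control aorta and 1.54 in KO aorta. In KO DA the melanocyte markers Dct, Tyrp1 and Tyr did not exceed 3 counts in any library.

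Different genes are set side by side here per kilobase of longest transcript. The scale is approximate, as the longest annotated transcript need not be the one expressed. On it, Notch3 was the receptor with the highest level in every group. In control DA it stood at 18.4 ± 4.2 CPM per kb (SD, n = 7), above Notch2 at 5.63 ± 0.898, Notch4 at 4.34 ± 0.621 and Notch1 at 3.96 ± 0.799, and the libraries of these last 3 receptors overlapped. Among the ligands that activate the receptors, Jag1 led with 19.7 ± 4.55 CPM per kb in control DA, while Jag2 (1.57 ± 0.683), Dll4 (1.44 ± 1.03) and Dll1 (0.902 ± 0.894) lay together near the low end and did not separate beyond their spread. Dlk1, a ligand-like protein without the receptor-activating DSL domain, was higher than Jag1 at 98.4 ± 47.4 CPM per kb. Of the target genes, Heyl (26.4 ± 8.71), Hey2 (19 ± 5.12), Nrarp (16.8 ± 4.67), Hey1 (14.5 ± 3.41) and Hes1 (13.2 ± 3.23 CPM per kb) formed a run in which neighbours overlapped.

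**Figure D1:**
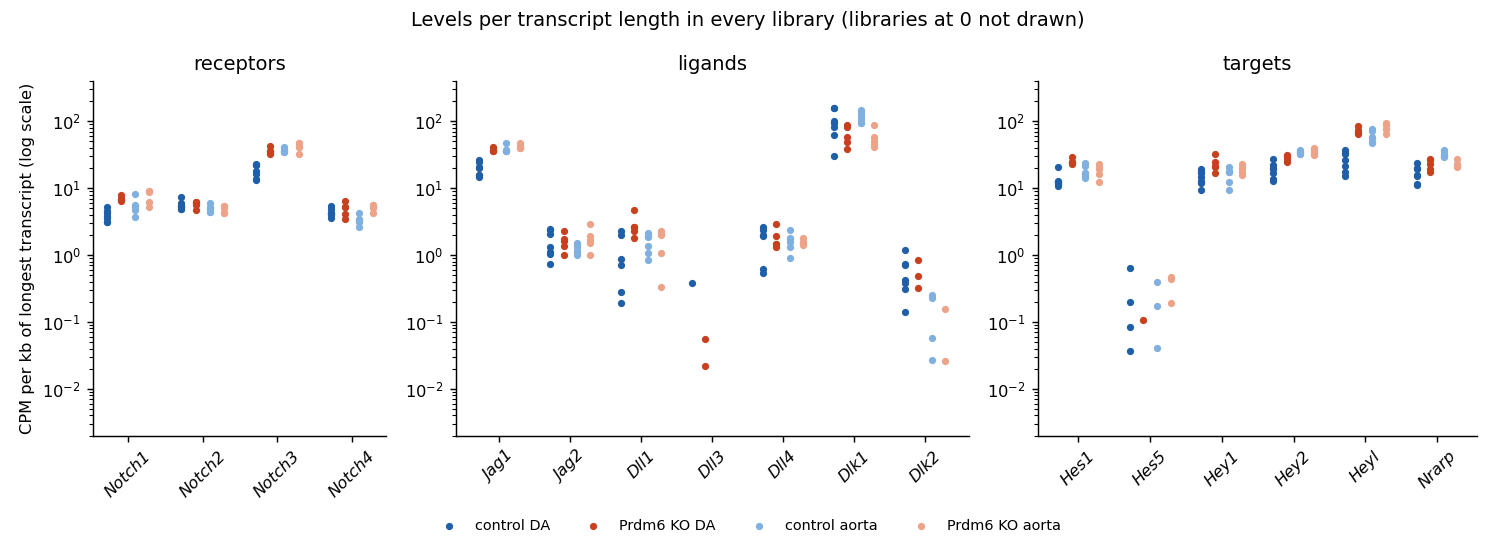
Levels of receptors, ligands and target genes in CPM per kilobase of longest transcript, on a log axis, with 1 point per library and the 4 groups in colour. Notch3 and Jag1 sit above the other receptors and activating ligands, and the control DA points of Notch3, Jag1 and Heyl lie below those of the other groups.

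In the Prdm6-deficient DA, 7 of the 35 tested members passed the test against control DA, which asked whether loss of Prdm6 alters expression in this vessel. Of these, 6 were higher (the receptors Notch1 and Notch3, the ligand Jag1 and the targets Hes1, Hey2 and Heyl) and 1 was lower (Lfng). A gene was called where its adjusted p was under 0.01 and its log2 fold change exceeded 0.5 in size, a rule under which 5.43% of all tested genes were called, 2.61% higher and 2.82% lower. The median log2 fold change was 0.18 over the members and 0.01 over all genes tested. In 7 members (Notch1, Notch3, Jag1, Hes1, Heyl, Lfng and Dtx3) the control and KO libraries did not overlap, as was the case for 5.66% of all genes.

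Among the receptors, Notch3 (chr17:32120820-32166852, minus strand, mm10), the main receptor of arterial smooth muscle, ranged in control DA from 107 to 186 CPM with a median of 142. The KO DA libraries held 280, 259, 346, 289 and 287 CPM. Every KO library thus lay above every control, and the difference was 1.98-fold (log2 fold change 0.99, SE 0.12, edgeR adjusted p = 1.5e-06). Notch1 (chr2:26457903-26516663, minus strand), which is active in endothelium as well as in other cells of the wall, ran from 29.3 to 50 CPM in control DA, with a median of 36.1. In KO DA it was 65.3, 62.6, 66.1, 61.9 and 74.9 CPM. Here too the groups were separate, with a rise of 1.76-fold (log2 0.81, SE 0.16, adjusted p = 7.7e-04). Notch2 (log2 0.02, 95% interval -0.19 to 0.23) and Notch4, a receptor of endothelial cells (log2 0.18, interval -0.10 to 0.45), did not pass, and their KO and control libraries overlapped.

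Of the ligands, Jag1 (chr2:137081456-137116644, minus strand) rose 1.90-fold in KO DA. Control DA libraries had 82.3 to 147 CPM (median 113), and KO DA libraries had 230, 204, 201, 211 and 207 CPM. The KO values were close to each other and all above the highest control (log2 0.93, SE 0.12, adjusted p = 1.8e-06). Dll1, another activating ligand, had the largest fitted log2 fold change of the members but varied widely and did not pass. It ranged from 0 to 8.14 CPM in control DA, with a median of 2.54, and held 9.29, 8.29, 6.37, 16.9 and 9.23 CPM in KO DA (log2 1.62, SE 0.61, adjusted p = 0.0863). Jag2 (log2 0.02, SE 0.29) and the endothelial ligand Dll4 (log2 0.34, SE 0.53) did not pass either. Dlk1 averaged 458 ± 221 CPM in control DA libraries (SD, n = 7) and 293 ± 98.1 in KO DA (n = 5), with overlap (log2 -0.64, SE 0.28, adjusted p = 0.154). Dlk2 stayed at or below 2.14 CPM throughout the DA libraries.

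Of the 5 target genes tested, 3 were called, and Heyl had the largest change of the called members. Heyl (chr4:123233556-123249875, plus strand), a Hey family repressor expressed in vascular smooth muscle, ranged from 69.6 to 172 CPM in control DA with a median of 119. In KO DA it held 339, 301, 391, 311 and 292 CPM. The lowest KO library was well above the highest control, a difference of 2.73-fold (log2 1.45, SE 0.17, adjusted p = 9.9e-07). Hes1 (chr16:30064384-30067796, plus strand), a repressor of the Hes family, was 15.8 to 29.8 CPM in control DA with a median of 18.1. KO DA libraries had 35.3, 34.0, 35.7, 36.6 and 42.4 CPM. The groups did not overlap, although control replicate 6, at 29.8 CPM, stood apart from the other controls, which ended at 18.7 CPM (1.91-fold, log2 0.93, SE 0.16, adjusted p = 1.6e-04).

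Hey2 (chr10:30832359-30842801, minus strand), an arterial repressor of the same family, rose by less, 1.47-fold. Its control DA values ran from 32.5 to 70.6 CPM (median 49.0), and its KO DA values were 79.2, 71.1, 65.7, 76.5 and 62.1 CPM. Control replicate 6 lay inside the KO range, so the groups overlapped (log2 0.55, SE 0.13, adjusted p = 0.0039). The call was lost without the pooled libraries (log2 0.49, adjusted p = 0.0469), without KO DA replicate 1 (0.51, adjusted p = 0.0158) or 6 (0.52, 0.0138), and without control DA replicate 3 or 7, where the log2 value fell to 0.49 and 0.47. It was also lost when the 2 DA groups were fitted alone (log2 0.54, adjusted p = 0.043). Hey1 missed the threshold by a small margin, averaging 35.2 ± 8.27 CPM in control and 56.6 ± 14.1 in KO DA (log2 0.69, SE 0.18, adjusted p = 0.0107). Hey1 was called by DESeq2 (log2 0.68, adjusted p = 0.0029) and by edgeR without the filter on low counts (adjusted p = 0.0082). It also passed without KO DA replicate 2 (adjusted p = 0.00604), control DA replicate 1 (0.00538) or control aorta replicate 5 (0.00975) or 6 (0.00503). Nrarp, which is induced by Notch and in turn limits the activated complex, was at 43.4 ± 12.0 and 58.4 ± 11.1 CPM (log2 0.43, SE 0.15, adjusted p = 0.0568). It passed in 1 of 23 fits that left out a library, the one without control DA replicate 6 (log2 0.54, adjusted p = 0.00956).

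**Figure D2:**
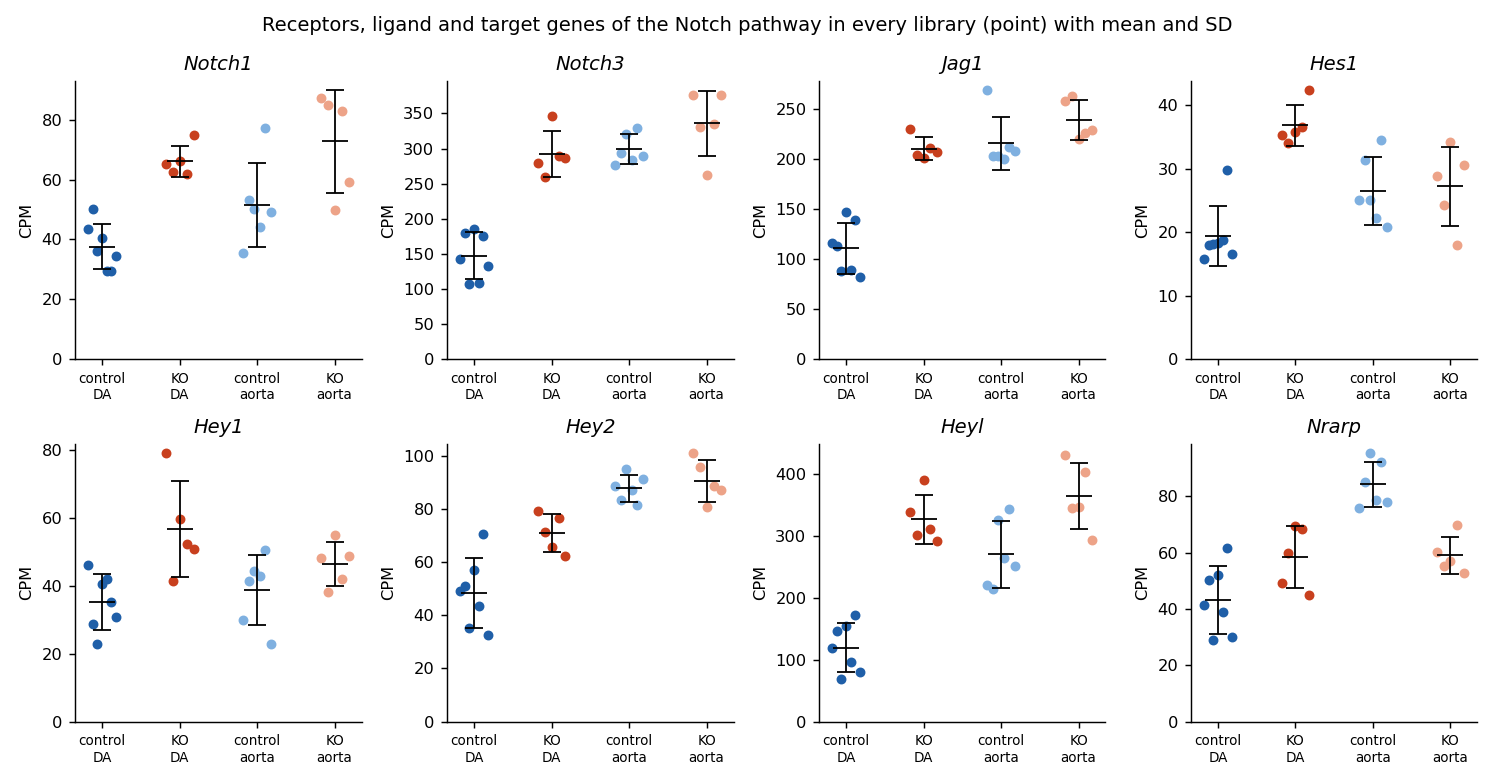
CPM of 8 receptors, ligand and target genes in every library, with 1 point per library and bars for the mean and SD of each group. In control DA, Notch3, Jag1 and Heyl lie below all libraries of the other 3 groups, and Nrarp is highest in control aorta.

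The gene that fell, Lfng (chr5:140607320-140615545, plus strand), encodes the Fringe enzyme that extends O-fucose on Notch receptors and so alters their response to Jagged and Delta-like ligands. It was 22.4 to 42.7 CPM in control DA with a median of 27.8, and 19, 16.8, 21.3, 16.9 and 19.5 CPM in KO DA. All KO libraries lay below all controls, at 0.625 of the control level (log2 -0.68, SE 0.16, adjusted p = 0.00539). The call was lost in 6 of 23 fits that left out a library, those without KO DA replicate 1, 2, 6 or 7 (adjusted p from 0.0112 to 0.019) and those without control DA replicate 4 (log2 -0.57, adjusted p = 0.013) or 7 (0.0122), as well as without both pooled libraries (0.0502) and with the replicate number as a block (0.0189). The other glycosylation genes were not called: the second Fringe gene Mfng had a log2 fold change of 0.70 (SE 0.27, adjusted p = 0.103), and Rfng and the fucosyltransferase gene Pofut1 were at 0.16 (SE 0.15) and 0.03 (SE 0.10).

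None of the 4 nuclear complex genes, 6 cleavage genes or 6 trafficking genes was called in the DA. Rbpj, the DNA-binding subunit, passed on its adjusted p and missed on its size. Control DA libraries ranged from 65.1 to 96.2 CPM (median 81.6) and KO DA libraries were 51.7, 62.0, 52.4, 65.3 and 60.0 CPM. The highest KO library lay just above the lowest control and the rest lay below (log2 -0.48, SE 0.10, adjusted p = 0.00219). Dtx3, of the Deltex family of ubiquitin ligases, was in the same position with the opposite sign. It ran from 45.6 to 59.5 CPM in control DA (median 53.7) and was 73.0, 76.4, 73.3, 74.8 and 75.4 CPM in KO DA, without overlap (log2 0.49, SE 0.09, adjusted p = 4.2e-04). Rbpj crossed the fold limit without KO DA replicate 2 or 6 or control DA replicate 4 or 6 (log2 -0.52 to -0.50), and Dtx3 without control DA replicate 4 or 6 (0.52 and 0.50) or without the Cre-carrying control embryo (0.50).

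The coactivators Maml1, Maml2 and Maml3 had log2 fold changes of 0.21, 0.19 and 0.08. The cleavage genes lay between -0.28 (the protease gene Adam10, adjusted p = 0.0429) and 0.15 (the gamma-secretase subunit gene Ncstn), with Adam17, Psen2, Aph1a and Psenen in between. Of the remaining trafficking genes, Numb and Numbl, which encode endocytic inhibitors of Notch, were at 0.37 (adjusted p = 0.135) and -0.09, and the ligand-directed ubiquitin ligase gene Mib1 was at -0.09. Dtx1 varied from 0.0557 to 7.20 CPM in control DA and from 3.86 to 16.3 in KO DA (log2 1.31, SE 0.53, adjusted p = 0.113), and Dtx4 was at 0.20 (SE 0.24).

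**Figure D3:**
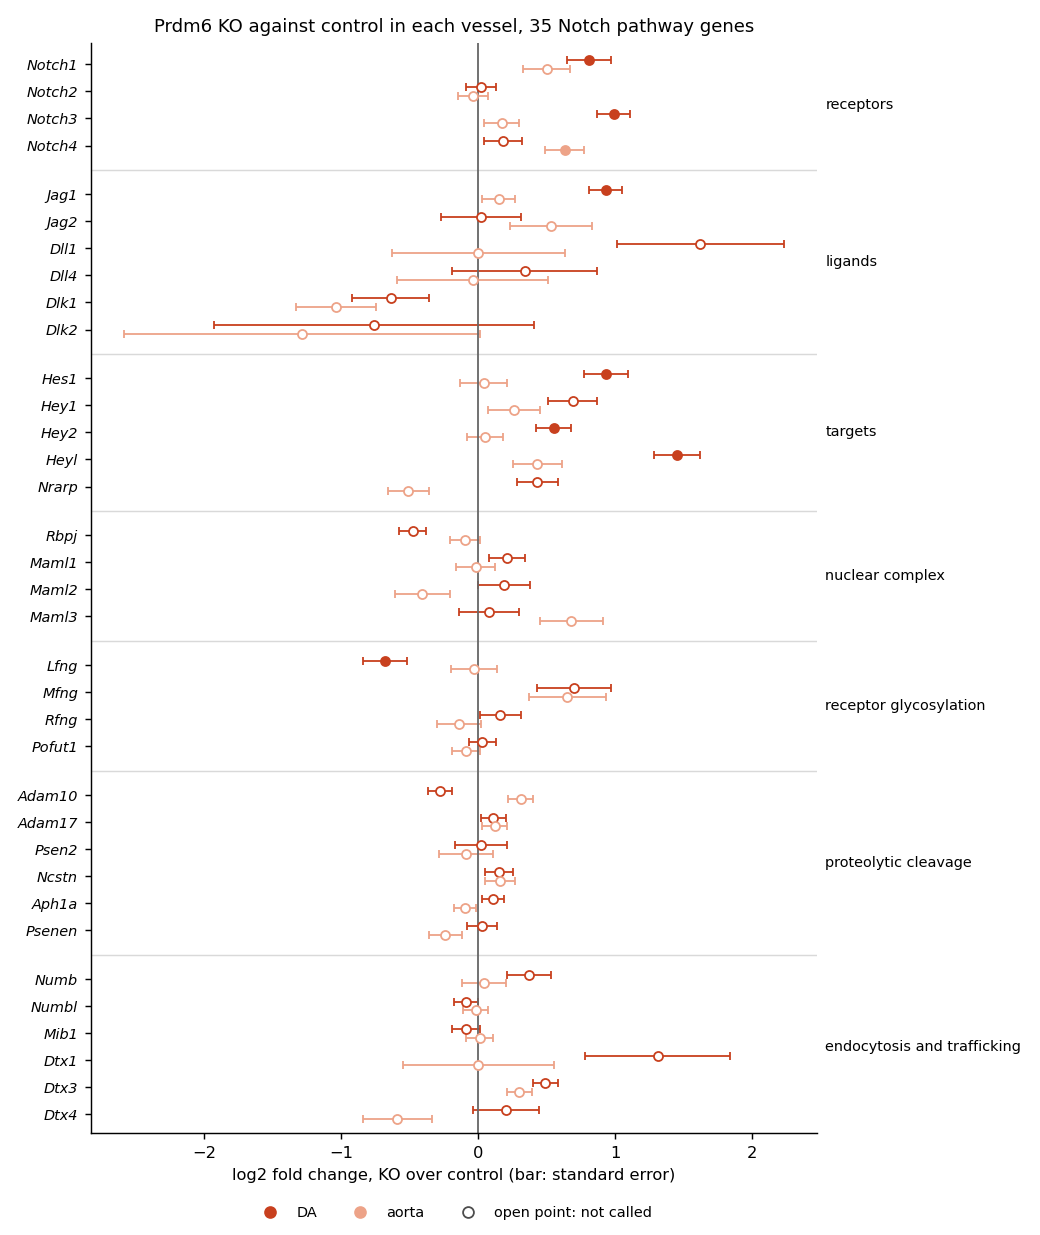
Log2 fold change of KO over control for 35 Notch pathway genes, by role, in the DA and the aorta, with the standard error as a bar and filled points for called genes. In the DA, Notch1, Notch3, Jag1, Hes1, Hey2 and Heyl are filled to the right of 0 and Lfng to the left, and in the aorta Notch4 is the filled point.

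In the same DA comparison the smooth muscle markers moved the opposite way to Notch3, Jag1 and Heyl, with 6 of 8 lower and a median log2 fold change of -0.72. Of the endothelial markers 1 of 9 was higher (median 0.20), and of the fibroblast markers 1 of 5 (median 0.30), with fibroblast sums of 756 to 2090 CPM in control and 1460 to 2340 in KO DA. Of the melanocyte markers 4 of 5 were lower in KO DA (median -7.83), with summed levels that did not overlap (27.7 to 218 against 0 to 1.56 CPM). Of the autonomic neuron markers 1 of 4 tested was higher (median 1.39, sums of 8.01 to 25.2 and 17.2 to 44.6 CPM). None of the 7 Schwann cell and glia markers was called (median 1.10, sums of 20.6 to 179 and 61.4 to 128 CPM). The control sum of 179 CPM was that of replicate 7. The other control DA libraries, at most 41.4 CPM, lay below every KO DA library. The part of these lists in the Notch results was not tested. In such bulk samples, fewer cells of a type and less RNA per cell cannot be told apart.

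The embryos came in 2 runs of animal numbers, which may mark breeding or collection batches, although the labels do not say so. The control DA group held 2 libraries of the first run and 5 of the second, and the KO DA group 3 and 2. Within the first and the second run taken alone, Heyl had log2 fold changes of 1.68 and 1.25, Jag1 of 1.09 and 0.84, Notch3 of 1.08 and 0.88, Hes1 of 0.99 and 0.94, Notch1 of 0.58 and 0.96, Hey2 of 0.77 and 0.40, and Lfng of -0.33 and -0.84. Each run alone called 3 members, Jag1 and Heyl in both, Hey1 in the first (log2 1.30, against 0.24 in the second) and Notch3 in the second. Of all genes, 201 were called in the first run and 419 in the second, against 894 with both runs together. Dlk1 also differed by run, at -1.32 (adjusted p = 0.0164) and -0.08. With the run as a covariate 6 members and 816 genes in all were called, Lfng being lost (log2 -0.64, adjusted p = 0.014).

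The promoters of 5 members are given for comparison: the 250 bases before the RefSeq start of Notch3, Jag1 and the target Hey2, which rose in KO DA, of Lfng, which fell, and of the target Nrarp, which was not called between genotypes in either vessel but differed between the control vessels. Promoter sequences (RefSeq, GRCm38.p6) were at hand for 30 of the 37 members. None was at hand for Hes1, Hey1, Heyl, Mfng, Mib1, Dtx3 and Dtx4. The targets Hes1 and Heyl, called in KO DA, are thus not covered by the motif counts. The sequences read 5′ to 3′ on the strand of the gene, with the start just after the last base, and capitals mark each match to the core TGGGAA, which Rbpj recognises, and to the E-box CACGTG, to which Hes and Hey repressors can bind, on either strand.
Notch3, chr17:32166891-32167140, minus strand: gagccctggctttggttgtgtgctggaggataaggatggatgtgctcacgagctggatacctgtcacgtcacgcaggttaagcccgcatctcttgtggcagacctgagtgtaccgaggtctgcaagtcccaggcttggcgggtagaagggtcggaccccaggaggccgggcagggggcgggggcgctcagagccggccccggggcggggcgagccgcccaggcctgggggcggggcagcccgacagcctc
Jag1, chr2:137116521-137116770, minus strand: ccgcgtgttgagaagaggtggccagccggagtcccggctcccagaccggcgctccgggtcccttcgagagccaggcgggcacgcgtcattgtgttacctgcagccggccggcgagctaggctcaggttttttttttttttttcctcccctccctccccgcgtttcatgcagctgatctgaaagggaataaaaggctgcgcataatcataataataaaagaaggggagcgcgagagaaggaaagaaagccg
Hey2, chr10:30842784-30843033, minus strand: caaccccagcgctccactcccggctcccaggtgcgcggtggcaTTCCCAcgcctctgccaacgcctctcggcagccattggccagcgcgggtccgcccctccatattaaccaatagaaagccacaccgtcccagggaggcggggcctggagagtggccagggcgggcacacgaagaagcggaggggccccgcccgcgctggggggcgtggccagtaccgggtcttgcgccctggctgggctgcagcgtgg
Nrarp, chr2:25180508-25180757, plus strand: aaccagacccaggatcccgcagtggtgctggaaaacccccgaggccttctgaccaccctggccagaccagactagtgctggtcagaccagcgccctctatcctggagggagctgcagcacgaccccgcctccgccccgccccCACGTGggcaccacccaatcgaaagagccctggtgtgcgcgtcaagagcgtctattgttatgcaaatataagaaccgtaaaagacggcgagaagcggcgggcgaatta
Lfng, chr5:140607091-140607340, plus strand: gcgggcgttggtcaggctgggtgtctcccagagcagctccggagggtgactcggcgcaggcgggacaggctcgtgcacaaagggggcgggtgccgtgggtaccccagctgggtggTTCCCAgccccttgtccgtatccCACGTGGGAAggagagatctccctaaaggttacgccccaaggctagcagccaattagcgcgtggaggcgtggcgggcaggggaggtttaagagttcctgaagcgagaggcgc

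Hey2 held 1 core on the reverse strand, 207 to 202 bases before the start. Lfng held a reverse core at 135 to 130 bases and a forward core at 108 to 103 bases that shares letters with an E-box at 112 to 107. Nrarp held an E-box at 108 to 103 bases and no core. The windows of Notch3 and Jag1 held neither motif. The 30 members had 38 promoters between them, as some have more than 1. The core was present in 9 of these 38 (23.7%), belonging to 8 members, and in 21.6% of all 32851 RefSeq promoters. The longer form GTGGGAA was present in 4 of the 38 (Hes5, Hey2, Lfng and Psen2) and in 5.42% of all promoters, and the E-box in 4 of the 38 (Adam10, Lfng, Nrarp and Psen2) and in 6.02%. These matches are a description of the letters in the window.

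In the ascending aorta, which tested whether the genotype difference is present in the neighbouring vessel, 1 of 35 members was called, against 2.45% of all genes. This was Notch4 (chr17:34564268-34588503, plus strand). Control aorta libraries had 17.2 to 27.9 CPM (median 21.6) and KO aorta libraries 34.6, 37, 32.8, 27.9 and 37.1 CPM. The lowest KO library and the highest control were level to 3 digits, and the others were apart (1.54-fold, log2 0.63, SE 0.14, adjusted p = 0.00747). The call was lost in 9 of 23 fits that left out a library, those without KO aorta replicate 1, 2, 3 or 5 or control aorta replicate 1, 2, 3, 4 or 6 (log2 0.56 to 0.64, adjusted p from 0.0138 to 0.0282), and without both libraries of the Cre-carrying control embryo (adjusted p = 0.0219). Of the endothelial markers 3 of 9 were higher in KO aorta, with a median log2 fold change of 0.49 over the list. The 3 lymphatic endothelial markers had a median of -0.62, with 0 called (sums of 53.9 to 98.0 CPM in control and 26.9 to 43.1 in KO aorta). The 6 macrophage and leukocyte markers had a median of -1.19, with 0 called (sums of 101 to 183 and 55.6 to 78.9 CPM). Of the autonomic neuron markers 1 of 4 was higher (sums of 19.1 to 29.7 CPM in control and 40.4 to 80.0 in KO aorta). The part of these markers in the Notch4 result was not tested.

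The members called in the DA had smaller aortic differences that did not pass. Notch3 was at 299 ± 21.4 CPM in control aorta (SD, n = 6) and 336 ± 46.2 in KO aorta (n = 5), a log2 fold change of 0.17 (SE 0.13). Jag1 was at 216 ± 26.5 and 239 ± 19.7 CPM (log2 0.15, SE 0.12), and Heyl at 270 ± 53.3 and 364 ± 53.9 CPM (log2 0.43, SE 0.18, adjusted p = 0.23). Hes1 (0.04, SE 0.17), Hey2 (0.05, SE 0.13) and Lfng (-0.03, SE 0.17) were near 0, and Notch1 was at 0.50 (SE 0.17, adjusted p = 0.0921).

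Some members were lower in the KO aorta without being called. The libraries of the 2 aorta groups did not overlap for 4 of 35 members (Notch4, Dlk1, Nrarp and Psenen), nor for 1145 of all 16463 genes. Nrarp ran from 76.0 to 95.4 CPM in control aorta (median 81.9) and was 60.2, 55.4, 57.1, 69.9 and 52.7 CPM in KO aorta. The groups did not overlap, but the adjusted p was 0.0517 (log2 -0.51, SE 0.15). Dlk1 ranged from 438 to 692 CPM in control aorta (median 535) and was 233, 216, 273, 407 and 190 CPM in KO aorta, again without overlap (log2 -1.04, SE 0.29, adjusted p = 0.0334, and 0.00605 without control DA replicate 6, which enters through the shared spread). When the 2 aorta groups were fitted alone, so that the spread of the DA libraries did not enter, both were called, Dlk1 with an adjusted p of 4.6e-04 and Nrarp of 6.7e-04.

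**Figure D4:**
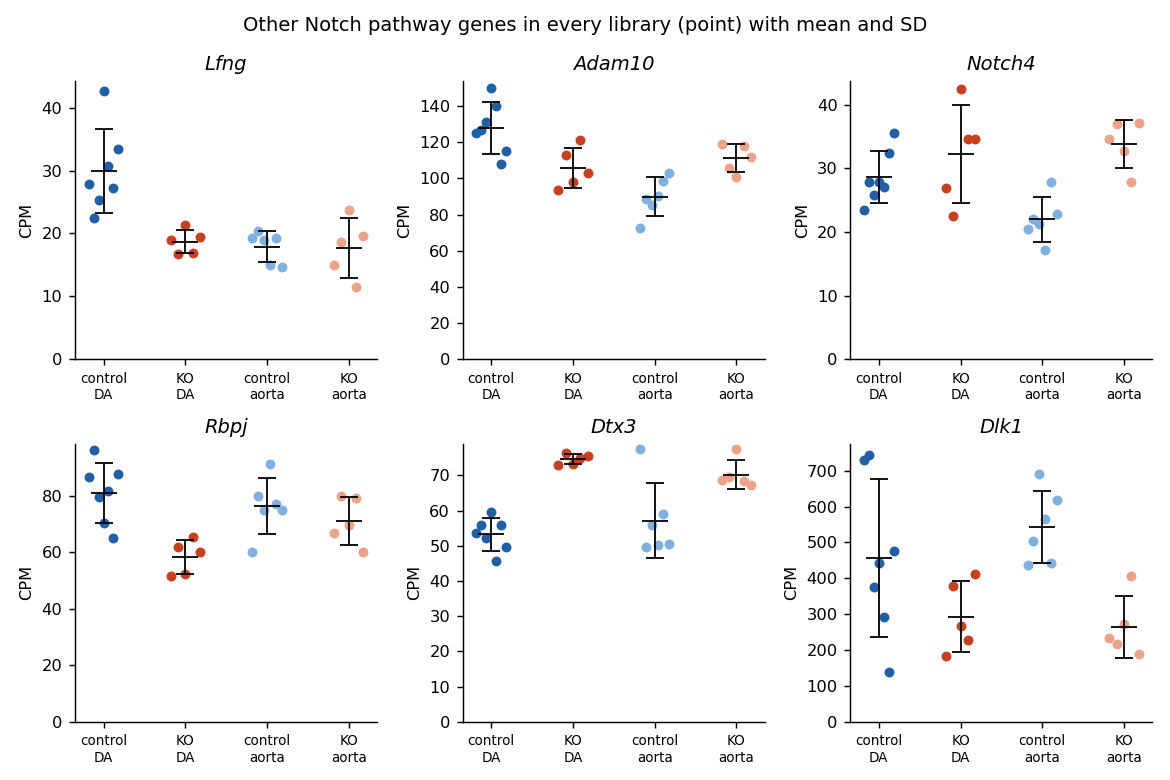
CPM of 6 further Notch pathway genes in every library, with 1 point per library and bars for the mean and SD of each group. Lfng and Adam10 are highest in control DA, Notch4 is lowest in control aorta, and the Dlk1 libraries of control DA spread from 139 to 745 CPM.

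The contrast between the vessels of control embryos tested which members mark the normal DA. Here 7 of 35 members were called, of which 5 were lower in the DA than in the aorta (Notch3, Jag1, Hey2, Heyl and Nrarp) and 2 were higher (Lfng and Adam10). Among all genes 5.36% were called, 3.16% higher and 2.19% lower. Libraries of the 2 vessels did not overlap for 8 members, the 7 called and Maml3, nor for 5.36% of all genes. Fits with the animal as a block, since 6 control embryos gave both vessels, also called 7 members.

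Notch3 was 107 to 186 CPM in control DA and 276 to 329 in control aorta, a log2 difference of -1.02 (SE 0.12, adjusted p = 4.5e-07). Jag1 was 82.3 to 147 CPM in the DA and 200 to 269 in the aorta (log2 -0.96, SE 0.11, adjusted p = 4.6e-07). Both were thus at about 0.5 of the aortic level (0.494 and 0.513), with no library of 1 vessel inside the range of the other. The targets followed the same order: Heyl was at 0.444 (log2 -1.17, SE 0.17), Nrarp (chr2:25180758-25183339, plus strand) at 0.514 (log2 -0.96, SE 0.14) and Hey2 at 0.552 of the aortic level (log2 -0.86, SE 0.12), with adjusted p of 1.1e-05, 1.9e-05 and 1.2e-05. Hes1 (log2 -0.46, SE 0.15, adjusted p = 0.0542) and Notch1 (log2 -0.46, SE 0.15, adjusted p = 0.054) did not pass, and Hey1 was at -0.14 (SE 0.17). Without control DA replicate 6 Hes1 was called (log2 -0.59, adjusted p = 0.00382).

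Lfng was 1.67-fold higher in the control DA (log2 0.74, SE 0.15, adjusted p = 0.00139), with 22.4 to 42.7 CPM against 14.7 to 20.4 in control aorta. Adam10 (chr9:70678997-70780229, plus strand), the protease that makes the first activating cut in Notch, was 108 to 150 CPM in control DA (median 127) and 72.4 to 103 in control aorta (median 89.6), 1.43-fold higher (log2 0.51, SE 0.09, adjusted p = 1.0e-04). Its log2 difference was close to the limit of 0.5 and fell to between 0.46 and 0.50 without control aorta replicate 1 or 3 or control DA replicate 4 or 5, or to 0.50 without the Cre-carrying control embryo, which ended the call. Maml3, a coactivator of low abundance, was at 0.71 (SE 0.21, adjusted p = 0.0295). Smooth muscle markers were higher in the control DA for 6 of 8 genes (median log2 0.79), the melanocyte markers for 3 of 5, the endothelial median was 0.12 with 0 of 9 called, and their part in these differences was not tested.

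Between the vessels of KO embryos, 0 of 35 members were called by edgeR and 0 by DESeq2, and 0.267% of all genes were called by edgeR. At an unadjusted p below 0.05 there were 5 members (Dlk2, Dtx4, Hes1, Hey2 and Rbpj), and 10% of all genes. Notch3 had a log2 difference of -0.20 (95% interval -0.46 to 0.06), Jag1 of -0.18 (-0.43 to 0.06), Heyl of -0.16 (-0.52 to 0.21), Nrarp of -0.02 (-0.33 to 0.30) and Lfng of 0.08 (-0.26 to 0.43). The corresponding intervals in control embryos were -1.25 to -0.79 for Notch3, -1.18 to -0.75 for Jag1, -1.50 to -0.85 for Heyl, -1.24 to -0.68 for Nrarp and 0.43 to 1.04 for Lfng. Hey2 had a log2 difference of -0.35 (-0.62 to -0.08, adjusted p = 0.325), and its KO DA values of 62.1 to 79.2 CPM all lay below its KO aorta values of 80.7 to 101. Such a lack of overlap between the KO vessels was found for 1 of 35 members, Hey2, and for 580 of all 16463 genes.

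**Figure D5:**
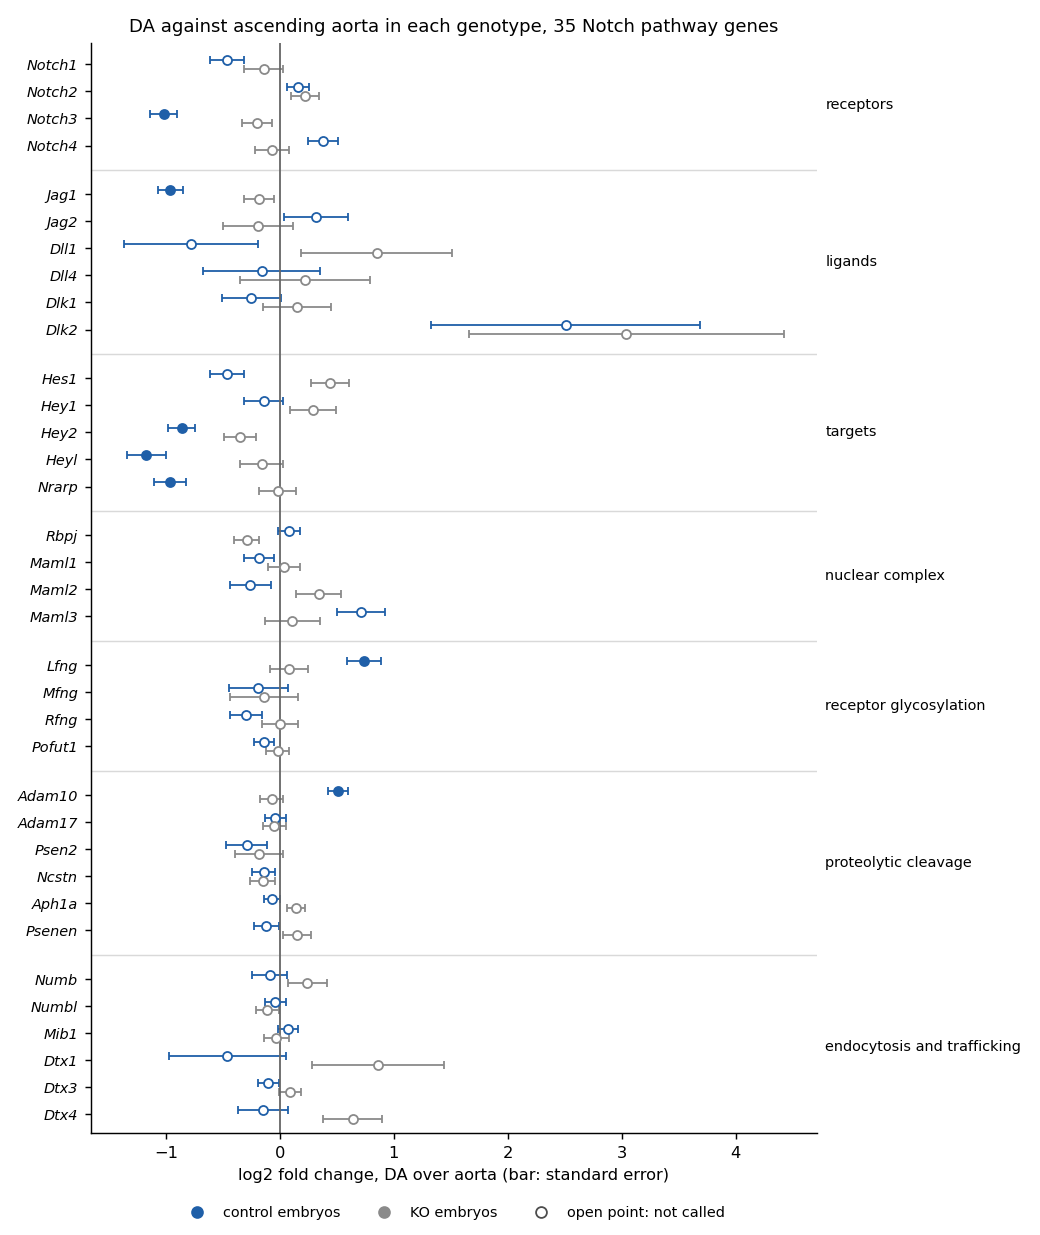
Log2 fold change of DA over ascending aorta for 35 Notch pathway genes, by role, in control and in KO embryos, with the standard error as a bar and filled points for called genes. In control embryos Notch3, Jag1, Hey2, Heyl and Nrarp are filled to the left of 0 and Lfng and Adam10 to the right, and in KO embryos all points are open.

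Set side by side, the DA genotype values and the control vessel values share the control DA libraries and so are not independent. Of the members called in both comparisons, Notch3, Jag1, Heyl and Hey2 had log2 values of 0.99, 0.93, 1.45 and 0.55 for KO over control DA. For control DA over control aorta they had -1.02, -0.96, -1.17 and -0.86, while Lfng had -0.68 and 0.74. Notch1 and Hes1 were called in the first comparison alone, and Nrarp and Adam10 in the second alone. In level, Notch3 averaged 147 CPM in control DA, 292 in KO DA, 299 in control aorta and 336 in KO aorta, and that of Jag1 was 111, 210, 216 and 239 CPM. Heyl followed the same order with 120, 327, 270 and 364 CPM, except that the KO DA mean exceeded that of control aorta.

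Whether the genotype difference itself differed between the vessels was tested with the interaction of genotype and tissue, in which 4 of 35 members and 2.58% of all genes were called. The genotype difference was more positive in the DA for Nrarp (log2 0.94, SE 0.21, adjusted p = 0.00663), Notch3 (0.82, SE 0.18, adjusted p = 0.00419) and Jag1 (0.78, SE 0.17, adjusted p = 0.00395), and more negative for Adam10 (-0.59, SE 0.13, adjusted p = 0.005). For Notch3 and Jag1 this came with a rise in the DA and a difference near 0 in the aorta. For Nrarp and Adam10 neither single difference was called, and the fitted signs were opposite: Nrarp was at 0.43 in the DA and -0.51 in the aorta, and Adam10 at -0.28 and 0.31. KO aorta libraries of Adam10 held 119, 106, 101, 118 and 112 CPM and KO DA libraries 93.4, 113, 97.9, 121 and 103 CPM. The means of the KO groups, 111 and 106 CPM, lay between those of control aorta (89.7) and control DA (128), while most single KO libraries lay within the range of one control group or the other.

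With the animal as a block none of the 4 interactions passed, with adjusted p of 0.0394 for Notch3, 0.0391 for Jag1, 0.0145 for Nrarp and 0.0354 for Adam10, and fitted values from -0.55 for Adam10 to 0.95 for Nrarp. That fit called 239 genes in all against 425 without the block. Without the pooled KO DA libraries 1 member was called, and Jag1 (adjusted p = 0.02), Nrarp (0.013) and Adam10 (0.0212) were lost. Without the Cre-carrying control embryo Nrarp (0.0124) and Adam10 (0.0138) were lost, and with the replicate number as a block Notch3 (0.0149) and Adam10 (0.0145). Notch3 was lost without KO aorta replicate 3 or KO DA replicate 5 (adjusted p of 0.0108 and 0.0113), and Jag1 without KO aorta replicate 3 or 4 (0.01 and 0.0101). Adam10 was lost in 7 of 23 fits, those without KO aorta replicate 1, 4 or 5, KO DA replicate 1, 5 or 7 or control aorta replicate 3 (adjusted p from 0.0106 to 0.0132). Nrarp was lost in 12, those without KO aorta replicate 1, 2, 3 or 5, KO DA replicate 2, 5 or 6, control aorta replicate 2, 3 or 5 or control DA replicate 1 or 5 (0.0102 to 0.0179). Heyl (log2 1.02, SE 0.25, adjusted p = 0.0136), Hes1 (0.89, SE 0.23, adjusted p = 0.02), Lfng (-0.65, SE 0.23, adjusted p = 0.117) and Hey2 (0.51, SE 0.18, adjusted p = 0.131) did not pass with edgeR. DESeq2 called the interaction for Heyl (log2 1.01, adjusted p = 0.00637) and Hes1 (0.89, adjusted p = 0.0073), 6 members in all against 4, and edgeR without the filter on low counts called Heyl (0.00737). Heyl also passed without control DA replicate 2, 4 or 6 (adjusted p from 0.00314 to 0.0091) and Hes1 without control DA replicate 6 (log2 1.03, adjusted p = 0.00168). Of the smooth muscle markers 5 of 8 had a called interaction, all negative.

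Of 33 other genes of the pathway, chosen by their known roles, 30 were tested and 3 were called in KO DA against control DA. Of all tested genes 5.43% were called there. Neurl1a and Neurl1b, ubiquitin ligase genes that act on Notch ligands, fell, and the corepressor gene Ctbp2 rose. Neurl1a went from 19.2 to 31.7 CPM in control DA to between 2.12 and 5.69 in KO DA (0.18 of control, log2 -2.48, SE 0.30, adjusted p = 1.6e-06). It was 2.13 to 9.83 CPM in control aorta and 4.93 to 11.4 in KO aorta, so that control DA stood above the other 3 groups (interaction log2 -2.68, SE 0.41, adjusted p = 1.2e-04). Neurl1b was 29.9 to 67.3 CPM in control and 15.3 to 28.1 in KO DA (log2 -1.06, SE 0.18), and Ctbp2 30.2 to 36.7 and 36.2 to 65.3 CPM (log2 0.54, SE 0.11). The median over this list was -0.03.

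Of 7 genes known to respond to Notch, 2 were called in the DA and both rose, where 5.43% of all tested genes were called. Pdgfrb, the receptor that marks mural cells, had 93.7 to 131 CPM in control and 141 to 178 in KO DA, without overlap (log2 0.55, SE 0.09, adjusted p = 5.2e-05). Snai2, a repressor known from epithelial to mesenchymal transition, had 16.9 to 27.7 and 23.1 to 44.6 CPM (log2 0.63, SE 0.14, adjusted p = 0.00317). The median over the 7 genes was 0.32 in the DA and 0.30 in the aorta, where 0 of 7 and 2.45% of all genes were called. In the aorta Efnb2, an arterial ephrin gene, was at 223 to 298 CPM in control and 309 to 400 in KO libraries, without overlap but just inside the fold limit (log2 0.49, SE 0.07, adjusted p = 4.2e-05).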

How the data were processed

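Total RNA of microdissected vessels was sequenced as low-input libraries (NEBNext Ultra II kit per the labels). The authors filtered the reads, aligned them with STAR to mm10 and estimated expression with RSEM, and the deposited table holds expected counts per gene, of which 7.71% of values were not whole and all were rounded here. The strand setting of the counting is not given in the sources used here. Genes that overlap a called member were at or below 3.17% of its level. Identifiers were matched to gene symbols and mm10 coordinates (54723 of 54752).

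Counts were fitted with edgeR 4.0.16 (quasi-likelihood test, filterByExpr, TMM factors, 1 mean per group over 4 groups) with Benjamini-Hochberg adjustment across 16463 genes. CPM values use TMM-scaled totals. Libraries were not duplicates, with a chi-square per gene of 15.6 to 115 between libraries of a group. Depth ranged from 15163974 to 22610547 counts, and a floor of 3 counts covers counting error only. The script was tested on simulated data. Alternatives were DESeq2 1.42.0, RLE factors, no filter, an adjusted p of 0.05, run as covariate, replicate or animal blocks, single runs, the compared groups alone and left-out libraries.

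Vessels were paired by the embryo number in the labels: 10 embryos gave both, and the deviations of their DA and aorta libraries from the group means had correlations of -0.022 to 0.08, against -0.084 to 0.096 for vessels of different embryos. Separate embryos are the replicates, apart from the pools. The rule for named genes was to account for all 37 members by role, with full statistics for those called. Members and lists were chosen with earlier results of these data known. KO DA replicate 4 was not analysed here.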

Additional observations from a re-analysis of the deposited data

Results flagged for a closer look

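Of 140 group levels of the tested members, 7 had 1 library far from the rest of its group by Dixon's criterion, and about 7 are expected by chance. Jag1 was at 269 CPM in control aorta replicate 1 against 200 to 212 in the others. Dtx3 was at 77.4 CPM in the same library against 49.6 to 58.9, and at 77.4 CPM in KO aorta replicate 3 against 67.4 to 69.4. Dll1 was at 16.9 CPM in KO DA replicate 6 against 6.37 to 9.29, and Hes1 at 29.8 CPM in control DA replicate 6 against 15.8 to 18.7. Pofut1 was at 81.0 CPM in control aorta replicate 3 against 60.4 to 67.8. Dlk2 was at 0.275 CPM in KO aorta replicate 2 against 0 to 0.0465, where 3 counts are 0.142 CPM before normalisation.

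The genotype difference differed between DA and aorta, by the interaction term, for Nrarp (log2 0.94), Notch3 (0.82), Jag1 (0.78) and Adam10 (-0.59). DA and aorta libraries came in part from the same embryos, and with the animal as a block none of the 4 passed (adjusted p from 0.0145 to 0.0394).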

How the results depend on the processing

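Of 5878 fold changes of members refitted under the alternatives, 637 were of called differences, of which 75 lost the call and 0 changed sign. Of the 5241 that were not called, 31 gained a call and 130 changed sign, 76 of these in fits without 1 library and 27 in single-run fits. Among the sign changes were Maml3 (log2 0.08 to -0.39) and Psenen (0.03 to -0.26) for KO against control DA in run 2, and the Dlk2 interaction (0.52 to -1.46 with the animal block). In KO against control DA, 894 genes and 7 members were called, 201 and 3 in run 1 alone, 419 and 3 in run 2 alone, and 780 and 6 with the replicate block. In the aorta, 404 genes and 1 member were called, 616 and 2 at an adjusted p below 0.05, 702 and 3 with the aorta groups alone, 226 and 0 in run 2 alone, 0 members without the Cre-carrying control embryo, and 0 to 2 members without 1 library. Between control vessels the counts stayed within 1.5 times of 882 and 7. Between KO vessels 44 genes were called, 129 at an adjusted p below 0.05, 137 with DESeq2, 16 with the replicate block, 15 without pooled libraries, 83 with the KO groups alone, 3 and 6 in runs 1 and 2, 11 with the animal block and 22 to 58 without 1 library. For the interaction, 425 genes and 4 members were called, 769 genes at an adjusted p below 0.05, 239 genes and 0 members with the animal block, 2 members with the replicate block, 1 without pooled libraries, 2 without the Cre-carrying control embryo and 1 to 6 without 1 library. Single-run fits have fewer samples, and the cause of the other shifts was not tested. Replicate numbers are only labels: libraries with the same number correlated at -0.054 to 0.13 in their deviations (28 pairs), so a call lost under that block is not read as a weaker effect. Low-count members (Dll1, Dll4, Dlk2, Dtx1) had wide intervals at this depth.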

Other observations

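Within the control DA group, the members that were lower than in the aorta varied together. Replicates 3, 5 and 7 held the lowest 3 of 7 values for each of Notch3, Jag1, Hey2, Heyl and Nrarp. Replicate 4 or 6 held the highest value of each. Replicates 3, 5 and 7 were picked by the values of Notch3, Jag1, Hey2, Heyl and Nrarp, so the match of these genes was fixed in advance. Of the other tested members only Dtx3 had its 3 lowest values there, as had 4.61% of all 16463 tested genes. Replicate 7 held 179 CPM of Schwann cell and glia markers, the most of the group, and the smooth muscle sums of replicates 3, 5 and 7 were 22100, 24000 and 17900 CPM, against 13700 to 20800 in the other 4. The pattern was noticed in these values and has no test.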
